A study of Mus musculus with 13 samples.

Results

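The genes described here encode the machinery of autophagy, the process by which a cell wraps part of its own contents in a membrane and delivers it to the lysosome for breakdown. They are 38 of the 21868 genes in the count table and were taken by symbol: the ULK1 kinase complex, the class III PI3-kinase complex, the lipid transfer proteins and PI3P effectors, the conjugation enzymes, the ATG4 proteases, the ATG8 proteins, the cargo and mitophagy receptors, and the transcription factors Tfeb and Tfe3. All 38 had enough counts to be tested. Their RNA was counted in epithelial cells of mouse jejunum, sorted for EpCAM and against CD45, CD11b, CD3 and B220, from 13 libraries in 5 groups. BSF_C (3 libraries) is named a combination of the breakfast skipping pattern with control and nothing more is said of it. BSF (2 libraries) is breakfast skipping, with food from ZT16 to ZT24. LSF (3 libraries) is lunch skipping, fed at ZT12 to ZT16 and again at ZT20 to ZT24. DSF (2 libraries) is dinner skipping, with food from ZT12 to ZT20. The control group, con, had 3 libraries. BSF, LSF and DSF mice kept their pattern for 2 weeks, and the design text gives environment and cage as the same for the mice. ZT counts hours of the light cycle. The feeding times of con and BSF_C, the hour of sampling, and the strain, sex and age of the mice are not given in the sources used here.

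Autophagy starts when the ULK1 kinase complex, which the nutrient sensor mTORC1 holds back in fed cells and the energy sensor AMPK promotes, activates a lipid kinase complex built on Pik3c3 and Becn1. The lipid PI3P then recruits WIPI proteins and ATG2 lipid channels, and conjugation enzymes attach ATG8 proteins (LC3 and GABARAP) to the growing membrane, where receptors such as Sqstm1 (p62) bind them and bring in cargo. In the intestine the pathway is known for its part in Paneth cell granules, in clearing bacteria that enter epithelial cells and in keeping mitochondria in order. RNA levels give the supply of these components and not the flux through the pathway, which depends largely on phosphorylation and lipidation.

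The libraries of con stood apart from the other 10. Library totals were 7127769 to 8589351 counts in the other groups, against 4851239 to 5202146 in con, and the first principal component, with 77.4% of the variance, separated con from the rest. The 8 epithelial markers were detected in every group, with a mean summed level of 7954 CPM (the count relative to the scaled library total) in BSF_C, 7836 in BSF, 9155 in LSF, 7829 in DSF and 4665 in con. Of these markers only Cdh1 was higher in con, at 2020 CPM against 718 to 851 in the other groups. All the others were lower in con, among them Lct at 139 CPM against 1325 to 1711 and Fabp2 at 17.8 against 130 to 186. The skin keratinocyte markers summed to at most 4.45 CPM in any library of the other groups, against between 396 and 478 CPM in con, where all 8 were detected. Calm4 was at 0 in BSF_C, BSF, LSF and DSF. Leukocyte markers summed to between 119 and 204 CPM in the libraries of the feeding groups and BSF_C and to between 14.97 and 19.3 CPM in con, where Adgre1 was at 0. Itgam, Ms4a1 and Cd79a ran the other way, with means of 12.1, 2.17 and 1.12 CPM in con and lower means in every other group. The share of mitochondrially encoded counts averaged 9.63% in BSF_C, 9.54% in BSF, 10.1% in LSF, 10.2% in DSF and 11.7% in con. No label gives a batch, so for every comparison with con the feeding pattern and any difference in how con was prepared cannot be told apart. In bulk samples, fewer cells of a type and less RNA per cell cannot be told apart either.

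Summed over the 38 genes, the level was 1771 ± 13.9 CPM in BSF_C, 1756 ± 33.8 in BSF, 1993 ± 19.7 in LSF, 1837 ± 5.89 in DSF and 1863 ± 77.7 in con (SD, n = 3, 2, 3, 2 and 3). The place of con depends on the scaling. As a share of the unscaled library total, con was lowest, at 0.171% to 0.175% per library against 0.181% to 0.198% in the other groups. Per length of exon (RPKM, CPM per kb of exon), Gabarap had the highest level, a mean over the 5 groups of 52.6, followed by Sqstm1 at 45.8 and Atg9a at 22.4. The length joins the exons of all annotated transcripts of a gene, so the order of genes by RPKM depends on it. Optn, Nbr1 and Map1lc3b lay close together at 17.8, 17.7 and 17.7 RPKM. The lowest were Ulk2 at 2.22, Pik3r4 at 2.07, Atg10 at 1.33 and Pik3c3 at 1.31 RPKM. Among BSF_C, BSF, LSF and DSF, the group mean in CPM was highest in LSF for 22 of the 38 genes, while LSF was highest for 31.4% of the 14300 genes tested. BSF was the highest of these 4 groups for 4 of the 38, against 23.4% of genes tested.

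**Figure D1:**
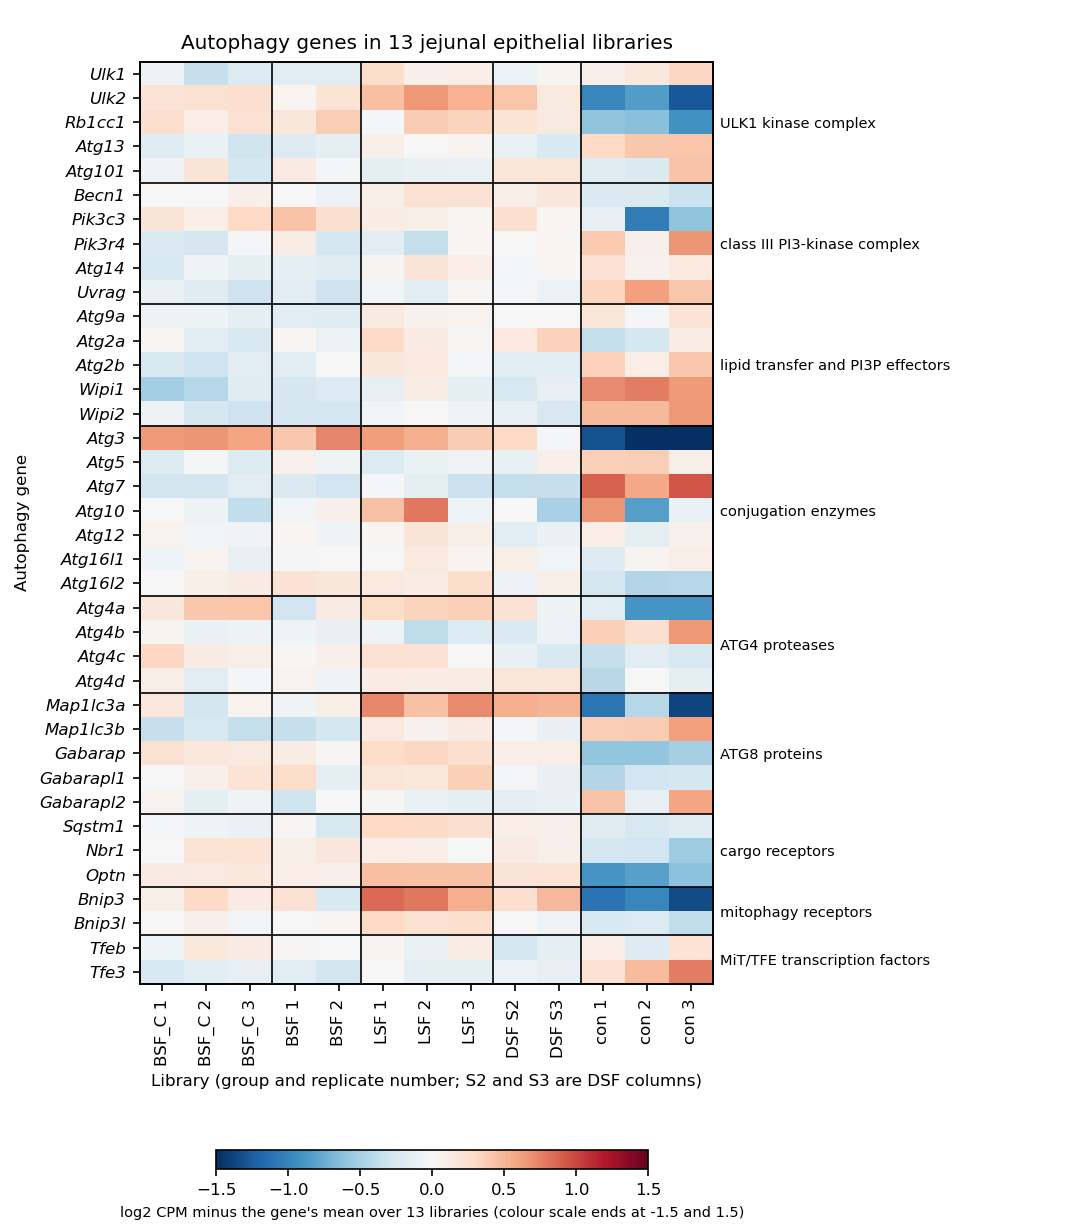
Each column is a library, each row an autophagy gene, and colour gives log2 CPM minus that gene's mean over the 13 libraries, with the scale ending at -1.5 and 1.5. The con libraries differ from the others in both directions, with Atg3 lowest and Atg7 highest in con, and Map1lc3a, Sqstm1, Optn and Bnip3 are higher in LSF than in BSF_C or BSF.

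Promoters of 31 of the 38 genes were in the RefSeq table (GRCm38.p6). Those of Atg12, Atg16l1, Becn1, Bnip3l, Map1lc3a, Pik3c3 and Rb1cc1 were not matched. The 250 bases before each start were searched on both strands for the E-box CACGTG, the core of the element bound by Tfeb and Tfe3. It stood in 4 of the 31 (12.9%) and in 6.86% of the 27025 genes of the table. These 4 promoters are shown because their genes, Atg3, Atg5, Atg7 and Bnip3, moved in opposite directions against con. They are printed 5′ to 3′ on the gene's strand, with the E-box in capitals. Atg3, the E2-like enzyme of ATG8 conjugation, lies at chr16:45158579-45158828 on the plus strand and has E-boxes that begin 94 and 71 bases before its start. Atg5, which is joined to Atg12, lies at chr10:44268089-44268338 on the plus strand with an E-box that begins 14 bases before. Atg7, the E1-like enzyme, has its window at chr6:114670846-114671095 on the plus strand, with an E-box that begins 132 bases before that RefSeq start. GENCODE M21 places the Atg7 gene at chr6:114643097-114860614, so this window lies inside the gene and not before its first annotated base. Bnip3, a mitophagy receptor, lies at chr7:138909507-138909756 on the minus strand with an E-box that begins 108 bases before. The Atg3 and Bnip3 windows also run past the GENCODE M21 starts of their genes, at chr16:45158785 and chr7:138909519.
Atg3: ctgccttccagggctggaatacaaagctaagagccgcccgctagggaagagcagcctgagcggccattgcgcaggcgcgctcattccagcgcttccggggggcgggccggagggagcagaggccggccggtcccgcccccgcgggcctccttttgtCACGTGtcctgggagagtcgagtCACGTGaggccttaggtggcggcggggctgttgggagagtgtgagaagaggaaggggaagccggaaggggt
Atg5: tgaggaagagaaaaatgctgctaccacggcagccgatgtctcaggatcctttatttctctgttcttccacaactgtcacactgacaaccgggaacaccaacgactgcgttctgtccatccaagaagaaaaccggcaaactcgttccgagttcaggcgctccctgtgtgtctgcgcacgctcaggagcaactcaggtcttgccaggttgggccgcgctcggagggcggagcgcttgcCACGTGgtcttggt
Atg7: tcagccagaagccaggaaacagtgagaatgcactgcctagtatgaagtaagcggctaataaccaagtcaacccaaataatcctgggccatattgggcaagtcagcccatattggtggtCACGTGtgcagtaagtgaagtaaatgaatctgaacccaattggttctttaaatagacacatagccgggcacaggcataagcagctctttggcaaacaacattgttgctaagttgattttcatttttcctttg
Bnip3: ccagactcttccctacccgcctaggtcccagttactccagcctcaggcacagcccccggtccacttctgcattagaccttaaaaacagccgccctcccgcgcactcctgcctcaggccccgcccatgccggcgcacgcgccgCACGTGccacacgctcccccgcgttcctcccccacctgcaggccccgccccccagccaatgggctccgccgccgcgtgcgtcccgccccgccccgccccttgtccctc
Against con, Atg3 and Bnip3 were higher and Atg5 and Atg7 lower in each of BSF_C, BSF, LSF and DSF, as their values further on show. The forkhead site GTAAACA stood in 0 of the 31 promoters and in 3.54% of the table's genes. The antioxidant response element TGACNNNGC stood in 2 of the 31 (6.45%), those of Atg13 and Ulk2, and in 11.5% of the table's genes. A match is a run of letters, not a site shown to be bound.

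The first question was whether the autophagy genes differed between breakfast skipping and the patterns that skip a later meal, which leaves con out of the contrast. In BSF against the LSF and DSF mean, 7 of the 38 genes were lower and 0 higher. These were Map1lc3b, Sqstm1, Bnip3, Atg9a, Optn, Map1lc3a and Becn1: ATG8 proteins, the receptors that bind them, a mitophagy receptor, the lipid scramblase of the early vesicles and the core of the lipid kinase complex. That is 18.4% of the genes, and 21.4% of all genes tested were called in this comparison. By direction, 11.5% of all genes tested were called lower and 9.87% higher. The median log2 fold change was -0.10 over the 38 genes and 0.0024 over all genes tested. At an unadjusted p under 0.05, 11 were lower and 0 higher. Such a p was common: Ulk2, among the 11 with an edgeR p of 0.0473, ranked 4612 by p among all genes tested. DESeq2's Wald test and limma-voom, for which no all-gene share is given, each gave 7 lower and 0 higher. The count rests on both BSF libraries: without BSF replicate 1, 3 genes were lower, and without BSF replicate 2 only Map1lc3b was. The Becn1 call was also lost without LSF replicate 2 (adjusted p = 0.0541) or DSF column S3 (adjusted p = 0.0898).

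BSF_C against the LSF and DSF mean gave 8 lower and 1 higher. The lower genes were Map1lc3b, Sqstm1, Map1lc3a, Atg2a, Ulk1, Bnip3, Optn and Atg4d, and the higher gene was Atg3. The share called was 23.7%, beside 23.4% of all genes tested, of which 12.2% were lower and 11.2% higher. The median log2 fold change was -0.10 over the 38 genes and 0.0070 over all genes tested. This comparison uses the same LSF and DSF libraries as that of BSF, so the pair of lists are not independent of each other. With library totals alone as the scaling, 60.9% of all calls were higher for BSF and 60.1% for BSF_C, beside 46.2% and 48.0% with trimmed-mean scaling, and the autophagy genes gave 6 lower in each. Under that scaling Becn1 in BSF (adjusted p = 0.0849) and Optn (adjusted p = 0.0746) and Atg4d (adjusted p = 0.107) in BSF_C missed the threshold. Without DSF column S3, 4 genes were lower in BSF_C, and without BSF_C replicate 2 or LSF replicate 1, 5 were. Atg3 was no longer called without any 1 of the BSF_C libraries, LSF replicate 2, LSF replicate 3 or DSF column S3. Of the lower genes in BSF_C, Optn was lost without any 1 of the BSF_C and DSF libraries or LSF replicate 1 (adjusted p of 0.0515 to 0.096). Atg4d was lost without BSF_C replicate 2 or 3 or any 1 of the LSF and DSF libraries (adjusted p of 0.0553 to 0.309). Bnip3 was lost without BSF_C replicate 1 or 3, LSF replicate 1 or DSF column S3 (adjusted p of 0.0582 to 0.13), and Ulk1 without BSF_C replicate 2 or DSF column S3 (adjusted p of 0.0781 to 0.143).

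Markers of other cell types differed between the same groups. Heart muscle markers summed to 85.7 to 101 CPM in BSF_C, 88.7 to 90.7 in BSF, 229.6 to 267 in LSF and 250.4 to 256 in DSF, with all 8 detected in each. Smooth muscle and fibroblast markers summed to 29.5 to 54.7 CPM in BSF_C, 23.4 to 26.4 in BSF, 75.3 to 94.6 in LSF and 67.6 to 79.6 in DSF, again with all 8 detected. Much of that gap was Des, with means of 14.6 CPM in BSF_C, 14.8 in BSF, 47.2 in LSF and 45.5 in DSF. Acta2, Col1a1 and Col1a2 had higher means in BSF_C than in DSF, and Pdgfra was nearly level at 2.48 to 3.14 CPM. Markers of neurons and glia ran opposite to those of heart muscle, with means of 52.2 CPM in BSF_C, 55.6 in BSF, 26.9 in LSF and 24.6 in DSF. Mean sums of leukocyte markers were 138 CPM in BSF_C, 124 in BSF, 194 in LSF and 199.9 in DSF, and those of erythroid markers 7.39, 6.84, 29.1 and 11.6 CPM. Endothelial markers summed to means of 5.92, 5.21, 7.78 and 7.73 CPM. In con the sums of these lists were lower still. Mean sums were 8.84 CPM for heart muscle, 1.40 for smooth muscle and fibroblasts and 5.78 for neurons and glia. Those of erythroid cells and endothelium were 2.71 and 0.637 CPM. Myh6, Myh7, Actc1, Myl2, Nppa, Col1a2, Col3a1, Cdh5, Kdr, Emcn, Hba-a1, Hba-a2, Hbb-bs and Hbb-bt were at 0 in con. Its erythroid sum was Alas2 alone, above the Alas2 means of 1.12 to 1.77 CPM in the other groups. Myh11 was also highest in con, at 0.891 CPM against 0.166 to 0.522. The part of these cells in the values of the autophagy genes was not tested.

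Map1lc3b encodes LC3B, the ATG8 protein most used as a marker of autophagosomes. Its level was 104, 112 and 103 CPM in BSF_C, 104 and 110 in BSF, 147, 138 and 144 in LSF, 130 and 123 in DSF, and 170, 173 and 202 in con. All BSF_C and BSF libraries lay below all LSF and DSF libraries, and con lay above them all. The log2 fold change against the LSF and DSF mean was -0.33 ± 0.06 in BSF_C (adjusted p = 8.92e-06) and -0.32 ± 0.07 in BSF (adjusted p = 0.000197, edgeR). Map1lc3a, which encodes the related LC3A, had 9.34, 6.91 and 8.69 CPM in BSF_C, 8.08 and 8.91 in BSF, 13.8, 11.3 and 13.7 in LSF, 12.2 and 11.9 in DSF, and 3.92, 6.24 and 3.22 in con. Here too the BSF_C and BSF libraries lay below those of LSF and DSF, but con was the lowest group. The contrast with LSF and DSF was -0.59 ± 0.15 (log2) in BSF_C (adjusted p = 0.00246) and -0.55 ± 0.17 in BSF (adjusted p = 0.016).

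Among the cargo receptors, Sqstm1 brings ubiquitin-tagged cargo to LC3. It had 150, 146 and 142 CPM in BSF_C, 155 and 129 in BSF, 188, 187 and 180 in LSF, 164 and 161 in DSF, and 134, 129 and 134 in con. The highest BSF library stood close under the lowest DSF library, and LSF stood clear of every other group. The log2 fold change was -0.25 ± 0.05 in BSF_C (adjusted p = 0.000408) and -0.29 ± 0.06 in BSF (adjusted p = 0.000374). Sqstm1 shares 580 of its 3356 exon bases with Mrnip on the opposite strand. Optn, the receptor optineurin, which also takes part in removing damaged mitochondria, had 69.6, 69.5 and 70.5 CPM in BSF_C, 67.7 and 67.0 in BSF, 86.4, 86.0 and 85.6 in LSF, 72.5 and 73.1 in DSF, and 34.3, 36.0 and 41.2 in con. The gap to DSF was small and the gap to LSF wide. For Optn the log2 fold change was -0.18 ± 0.06 in BSF_C (adjusted p = 0.0298) and -0.23 ± 0.07 in BSF (adjusted p = 0.0147). Nbr1, a further ubiquitin-binding receptor, averaged 131 ± 10.3 CPM in BSF_C, 130 ± 5.60 in BSF, 125 ± 5.09 in LSF, 128 ± 2.99 in DSF and 93.2 ± 9.29 in con, and was called in neither contrast.

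**Figure D2:**
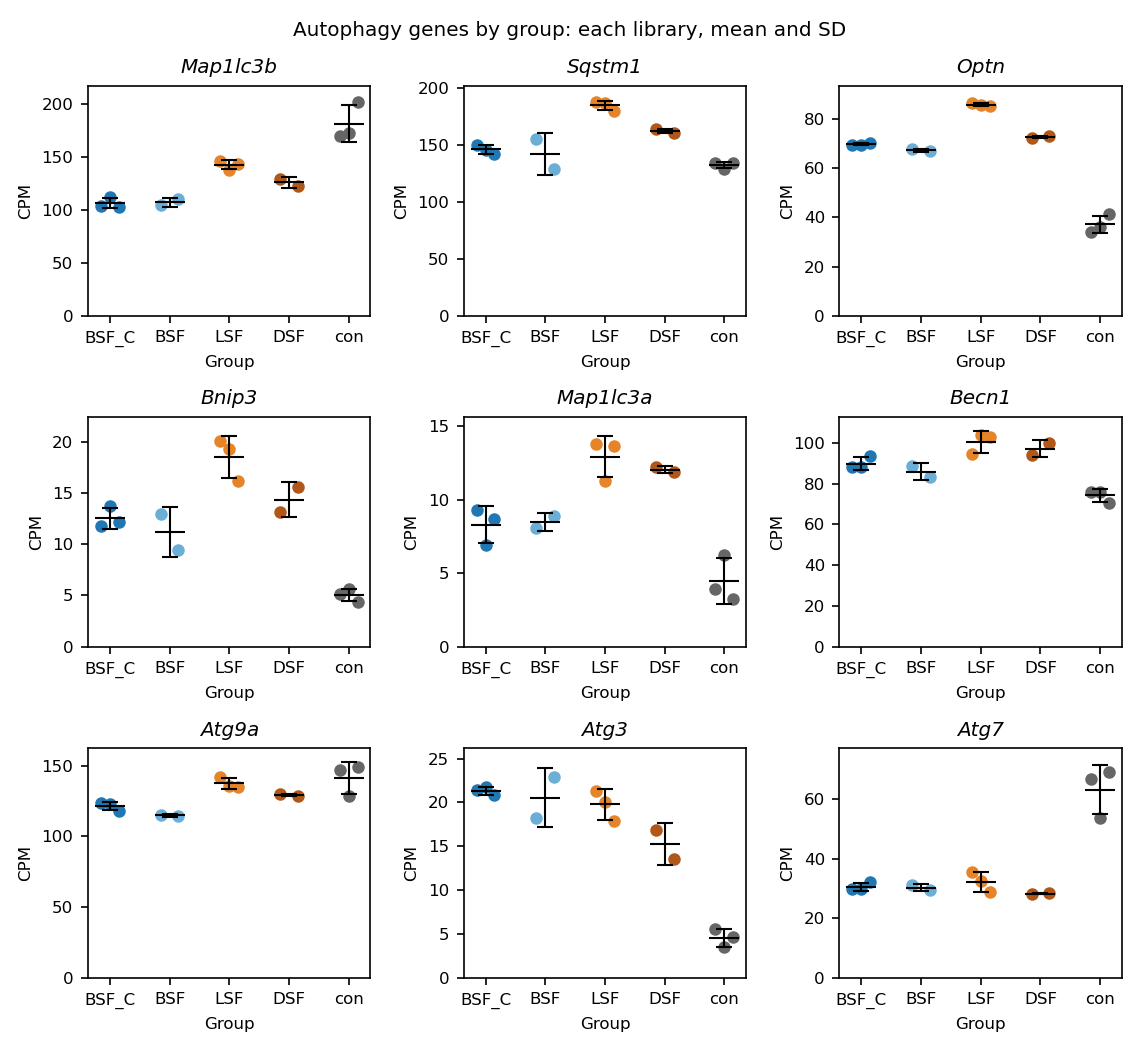
CPM of 9 autophagy genes in every library (points), with the group mean and SD (bars), for BSF_C, BSF, LSF, DSF and con. Map1lc3b, Sqstm1, Optn and Map1lc3a lie lower in BSF_C and BSF than in LSF and DSF, and Atg3 and Atg7 separate con from all other groups in opposite directions.

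The mitophagy receptor Bnip3, a membrane protein of mitochondria, had 11.8, 13.7 and 12.1 CPM in BSF_C, 12.9 and 9.47 in BSF, 20.04, 19.3 and 16.2 in LSF, 13.1 and 15.6 in DSF, and 5.16, 5.61 and 4.38 in con. The BSF libraries lay below those of LSF and DSF, while 1 BSF_C library overlapped DSF. The log2 fold change was -0.38 ± 0.13 in BSF_C (adjusted p = 0.0264) and -0.56 ± 0.15 in BSF (adjusted p = 0.00568). Its relative Bnip3l averaged 55.9 ± 2.18 CPM in BSF_C, 56.1 ± 0.721 in BSF, 66.3 ± 1.84 in LSF, 54.5 ± 1.5 in DSF and 46.2 ± 2.72 in con. For Bnip3l, then, DSF stood with BSF_C and BSF and LSF was above all 3, and neither contrast with the LSF and DSF mean called it. Bnip3 shares 504 of its 2265 exon bases with the antisense transcript Gm45507. Without a stated strand setting their reads cannot be told apart.

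Becn1, the scaffold of the lipid kinase complex, averaged 89.8 ± 3.20 CPM in BSF_C, 85.9 ± 3.94 in BSF, 100.4 ± 5.20 in LSF, 97.1 ± 4.12 in DSF and 74.3 ± 3.08 in con. Its log2 fold change was -0.20 ± 0.07 in BSF (adjusted p = 0.0246) and -0.14 ± 0.06 in BSF_C (adjusted p = 0.0846). All BSF_C and BSF libraries lay below all LSF and DSF libraries. Becn1 shares 3104 of 7065 exon bases with Cntd1 on the opposite strand. Atg9a, the scramblase of the vesicles that seed the membrane, averaged 121 ± 3.12 CPM in BSF_C, 115 ± 0.799 in BSF, 137 ± 3.78 in LSF, 129 ± 0.660 in DSF and 141 ± 11.4 in con. For Atg9a the log2 fold change was -0.13 ± 0.05 in BSF_C (adjusted p = 0.0645) and -0.21 ± 0.06 in BSF (adjusted p = 0.00957). It shares 1832 of 5762 exon bases with Gm29253 on the same strand, so that their reads cannot be told apart there. For both genes the contrast was called in BSF and missed the threshold in BSF_C, which does not show that BSF and BSF_C differed.

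In BSF_C, Ulk1, Atg2a and Atg4d were also called lower against LSF and DSF. Ulk1, the kinase that starts the pathway, averaged 28.8 ± 2.49 CPM in BSF_C, 37.0 ± 2.78 in LSF, 32.7 ± 2.09 in DSF and 37.8 ± 3.14 in con, and had 29.7 and 29.8 CPM in BSF. For Ulk1 the log2 fold change was -0.28 ± 0.09 in BSF_C (adjusted p = 0.0155) and -0.23 ± 0.10 in BSF (adjusted p = 0.0967). Atg2a, a channel that carries lipids into the growing membrane, averaged 39.8 ± 3.82 CPM in BSF_C, 42.3 ± 2.36 in BSF, 48.0 ± 4.56 in LSF, 51.3 ± 5.24 in DSF and 38.7 ± 6.86 in con. Its log2 fold change was -0.32 ± 0.08 in BSF_C (adjusted p = 0.00351) and -0.23 ± 0.10 in BSF (adjusted p = 0.0761), although the groups overlapped. Atg4d, a protease that trims ATG8 proteins and frees them from lipid, averaged 77.1 ± 6.78 CPM in BSF_C, 79.1 ± 3.72 in BSF, 85.3 ± 0.0844 in LSF, 89.7 ± 0.0591 in DSF and 69.6 ± 9.87 in con. For Atg4d the log2 fold change was -0.18 ± 0.07 in BSF_C (adjusted p = 0.0363) and -0.15 ± 0.08 in BSF (adjusted p = 0.165). Atg4d shares 1405 of its 7264 exon bases with Kri1 on the opposite strand. Atg3 went the other way, at 0.29 ± 0.11 in BSF_C (adjusted p = 0.0493) and 0.25 ± 0.13 in BSF (adjusted p = 0.165).

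**Figure D3:**
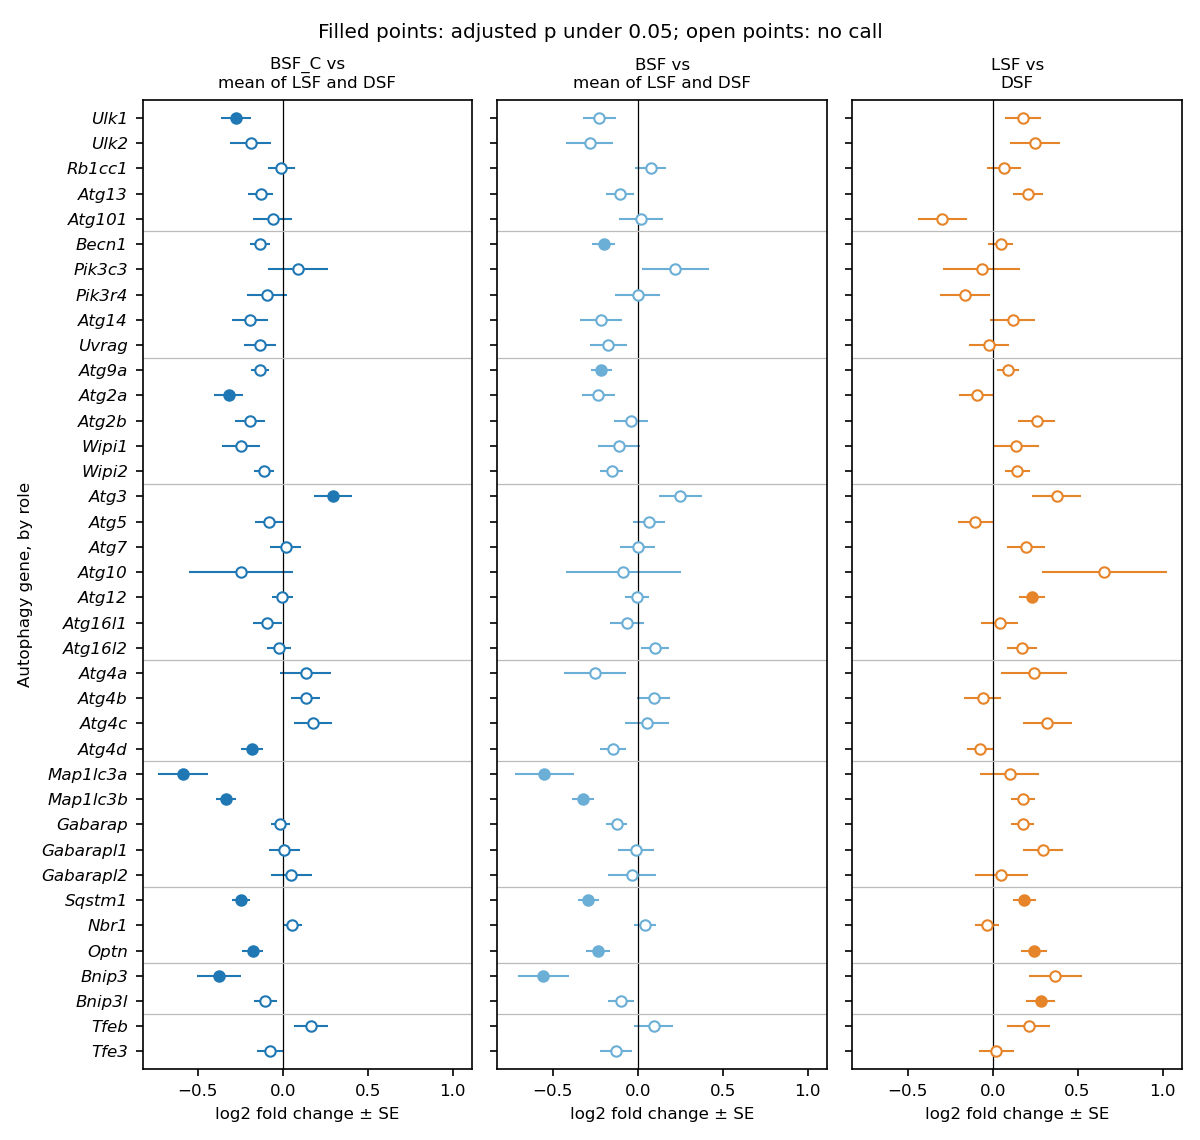
Points give the log2 fold change and bars its SE for each autophagy gene in 3 comparisons, BSF_C and BSF each against the LSF and DSF mean, and LSF against DSF. Filled points had an adjusted p under 0.05, and most genes lie left of 0 in the first and second panels and right of 0 in the third.

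LSF and DSF differ in whether the gap between meals falls in the middle or at the end of the active period. In LSF against DSF, 4 of the 38 genes were higher and 0 lower: Bnip3l, Optn, Atg12 and Sqstm1. That is 10.5% of the genes, beside 15.9% of all genes tested, of which 8.97% were higher and 6.91% lower. At an unadjusted p under 0.05, 12 were higher and 1 lower. The share of all genes at that threshold is not given, but it cannot be below the 15.9% called after adjustment. DESeq2's Wald test gave 3 higher and 0 lower, and limma-voom gave 4 and 0, with no all-gene share given for either. The median log2 fold change was 0.16 over the 38 genes and -0.00037 over all genes tested. The count depends on each of the 5 libraries: 0 genes were called higher without either DSF library, and 1 without any 1 of the LSF libraries. With library totals alone 1 gene was higher, and 38% of all calls were higher, beside 56.5% with trimmed-mean scaling.

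Bnip3l had 68.3, 64.8 and 65.8 CPM in LSF, against 55.6 and 53.4 CPM in DSF, a log2 fold change of 0.28 ± 0.08 (adjusted p = 0.0127). Optn followed with 0.24 ± 0.08 (adjusted p = 0.0224). Atg12, the ubiquitin-like protein joined to Atg5, averaged 97.6 ± 5.76 CPM in LSF, against 83.1 ± 2.31 in DSF, a log2 fold change of 0.23 ± 0.08 (adjusted p = 0.0272). Atg12 levels in the remaining groups lay between those values, at 89.8 ± 3.52 CPM in BSF_C, 89.8 ± 3.59 in BSF and 91.4 ± 8.13 in con. Sqstm1 differed by 0.19 ± 0.07 (adjusted p = 0.0427). For these 4 genes every LSF library lay above every DSF library, which held in this direction for 21 of the 38 genes and for 22.7% of all genes tested, and in the reverse direction for 2 of the 38 and for 22.4% (45% in either direction).

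BSF_C and BSF, which share breakfast skipping in their labels, did not differ in any autophagy gene past the threshold. edgeR's quasi-likelihood test called 0 of 38, as did DESeq2's Wald test and limma-voom, and 19 of the 14300 genes tested (0.133%) were called, 0.105% higher and 0.028% lower. At an unadjusted p under 0.05 there was 1, Atg4a, with a log2 fold change of 0.39 ± 0.19. It ranked 562 by p among the 14300 genes tested. The log2 fold changes of the 38 genes ran from -0.16 to 0.39, with a median SE of 0.11. Atg4a, with the highest of these values, had an adjusted p of 1, so a difference of that size was not detectable for a gene with its SE.

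Against con, most autophagy genes were called, and so were most genes. BSF_C had 16 higher and 15 lower, 81.6% of the 38, beside 73% of all genes tested (39.8% higher, 33.2% lower). BSF had 14 higher and 14 lower, 73.7%, beside 70.2% (38.3% higher, 31.9% lower). LSF had 18 and 11, 76.3%, beside 72% (38.9% higher, 33% lower). DSF had 16 and 12, 73.7%, beside 67.7% (36.6% higher, 31.1% lower). These shares lie near those of all genes and are no result about autophagy. The 4 comparisons also share the con libraries. Of the 38, 13 were higher and 11 lower in all of them, 5 were higher and 4 lower in some, and Atg101, Atg10, Atg12, Atg16l1 and Tfeb were called in none. The median log2 fold change of the 38 was 0.0035 in BSF_C, 0.0044 in BSF, 0.19 in LSF and 0.06 in DSF, and that of all genes tested 0.12, 0.11, 0.10 and 0.10. With library totals alone that last set was 0.28, 0.29, 0.20 and 0.26, and BSF had 18 autophagy genes higher and 8 lower.

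Within the ULK1 kinase complex the subunits moved apart. Ulk2, the relative of Ulk1, averaged 14.3 ± 0.283 CPM in BSF_C, 13.3 ± 1.16 in BSF, 17.8 ± 1.26 in LSF, 14.9 ± 1.89 in DSF and 6.04 ± 0.907 in con, with log2 fold changes over con of 1.23 ± 0.18, 1.14 ± 0.19, 1.55 ± 0.17 and 1.30 ± 0.19. Its share of the summed RPKM of Ulk1 and Ulk2 was 35.1% in BSF_C, 32.7% in BSF, 34.3% in LSF, 33.1% in DSF and 14.9% in con. Rb1cc1, the scaffold FIP200, averaged 46.4 ± 2.47 CPM in BSF_C, 49.0 ± 4.52 in BSF, 47.8 ± 6.94 in LSF, 45.5 ± 1.68 in DSF and 24.8 ± 2.76 in con. Its log2 fold changes over con lay between 0.87 and 0.98. Atg13, the adaptor that mTORC1 phosphorylates, was lower in all 4, at 47.6 ± 3.25 CPM in BSF_C, 48.4 ± 1.41 in BSF, 56.0 ± 1.74 in LSF and 48.5 ± 2.94 in DSF, against 70.7 ± 3.12 in con. Atg101, its partner, averaged 19.2 ± 3.05, 20.3 ± 1.5, 18.1 ± 0.30, 22.2 ± 0.0568 and 20.2 ± 5.43 CPM in BSF_C, BSF, LSF, DSF and con.

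The class III PI3-kinase complex was also divided. Its catalytic subunit Pik3c3 was higher than in con in all 4 groups, at 6.40 ± 0.443 CPM in BSF_C, 7.06 ± 0.681 in BSF, 5.89 ± 0.162 in LSF and 6.15 ± 0.680 in DSF, against 3.85 ± 1.24 in con. Without con replicate 2 it was not called in BSF_C (adjusted p = 0.0737), LSF (adjusted p = 0.18) or DSF (adjusted p = 0.149), and without con replicate 3 not in LSF (adjusted p = 0.0599) or DSF (adjusted p = 0.0523). Without LSF replicate 1 the LSF call was lost (adjusted p = 0.0541), and without DSF column S2 the DSF call (adjusted p = 0.154). Becn1 was called higher as well, though not in BSF without BSF replicate 1 (adjusted p = 0.174). The regulatory subunit Pik3r4 was lower in all 4, at 17.6 ± 1.53, 18.9 ± 3.38, 17.7 ± 2.32 and 19.8 ± 0.290 CPM, against 25.9 ± 5.15 in con. With library totals alone Pik3r4 was not called in BSF (adjusted p = 0.0887), which overlapped con, or in DSF (adjusted p = 0.197), and the DSF call held under 6 of 13 alternatives. It was lost there without con replicate 3 (adjusted p = 0.188), DSF column S2 (adjusted p = 0.0868) or DSF column S3 (adjusted p = 0.0656), and in BSF without con replicate 3 (adjusted p = 0.0699) or BSF replicate 2 (adjusted p = 0.174). Also lower in all 4 was Uvrag, the subunit of the later endosomal form, at 24.2 ± 1.77, 23.6 ± 1.77, 26.4 ± 1.72 and 26.8 ± 0.938 CPM, against 37.99 ± 3.99 in con. Atg14, which marks the form that starts autophagosomes, averaged 16.8 ± 1.03 CPM in BSF_C, 16.5 ± 0.393 in BSF, 19.98 ± 1.01 in LSF, 18.4 ± 0.461 in DSF and 20.4 ± 1.07 in con and was called lower in BSF_C only (adjusted p = 0.0433; 0.0518 in BSF), a call lost without con replicate 1 or 3 or BSF_C replicate 1 or 3 (adjusted p of 0.0644 to 0.121).

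Both WIPI genes, readers of PI3P, were lower than in con throughout. Wipi2, the member that brings in Atg16l1, averaged 97.7 ± 8.17 CPM in BSF_C, 94.8 ± 0.122 in BSF, 111 ± 2.30 in LSF, 100.3 ± 6.32 in DSF and 165 ± 10.99 in con, with log2 fold changes of -0.76 ± 0.07, -0.80 ± 0.07, -0.57 ± 0.06 and -0.72 ± 0.07 and an adjusted p of at most 2.49e-11. Wipi1 averaged 15.7 ± 1.96, 17.2 ± 0.379, 19.5 ± 2.03 and 17.8 ± 1.01 CPM, against 33.0 ± 1.38 in con. No library of the 4 groups reached a con library for either gene. Atg2b, the second ATG2 channel, averaged 27.7 ± 1.34 CPM in BSF_C, 30.7 ± 2.55 in BSF, 34.6 ± 2.60 in LSF, 29.0 ± 0.103 in DSF and 39.5 ± 4.18 in con and was called lower in all but LSF. Its call in BSF was lost with library totals alone (adjusted p = 0.146) and without BSF replicate 1 (adjusted p = 0.0659).

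Among the conjugation enzymes, Atg3 and Atg7 differed most from con, in opposite directions. Atg3 had 21.4, 21.8 and 20.8 CPM in BSF_C, 18.2 and 23.0 in BSF, 21.4, 20.04 and 17.9 in LSF, 16.9 and 13.6 in DSF, and 5.57, 3.53 and 4.61 in con. That is 4.65-fold con in BSF_C, 4.51-fold in BSF, 4.32-fold in LSF and 3.33-fold in DSF, with an adjusted p of at most 2.1e-10. Atg7 had 29.8, 29.8 and 32.1 CPM in BSF_C, 31.1 and 29.4 in BSF, 35.5, 32.6 and 28.8 in LSF, 28.1 and 28.4 in DSF, and 66.7, 53.9 and 69.1 in con. Every library outside con lay below every con library. Its log2 fold changes were -1.04 ± 0.10, -1.06 ± 0.11, -0.96 ± 0.10 and -1.16 ± 0.11. Atg5 was lower in all 4 groups, at 34.6 ± 2.44, 38.4 ± 2.36, 35.4 ± 1.86 and 37.9 ± 3.62 CPM, against 46.6 ± 4.67 in con. With library totals alone the Atg5 call was lost in BSF (adjusted p = 0.356) and DSF (adjusted p = 0.239), as it was in BSF without BSF replicate 2, con replicate 1 or con replicate 2 (adjusted p of 0.054 to 0.136) and in DSF without DSF column S2 (adjusted p = 0.16). Atg16l2 was higher in all 4, at 52.9 ± 2.47, 57.6 ± 1.47, 57.0 ± 3.06 and 50.5 ± 4.49 CPM, against 39.0 ± 2.86 in con, though the DSF call was lost without DSF column S3 (adjusted p = 0.056). Atg16l1, the scaffold that directs conjugation to the membrane, averaged 29.9 ± 1.81, 30.5 ± 0.255, 32.3 ± 1.85, 31.4 ± 2.00 and 30.7 ± 3.22 CPM in BSF_C, BSF, LSF, DSF and con. Atg10, the E2-like enzyme for Atg12, was near the lower end of detection at 2.01 ± 0.262, 2.25 ± 0.132, 3.00 ± 0.864, 1.90 ± 0.444 and 2.28 ± 1.14 CPM in the same order.

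Of the other ATG4 proteases, Atg4a was higher and Atg4b lower than in con in all 4 groups. Atg4a averaged 10.2 ± 0.939 CPM in BSF_C, 7.70 ± 1.56 in BSF, 10.1 ± 0.297 in LSF, 8.51 ± 1.21 in DSF and 5.32 ± 1.65 in con. The Atg4a call held under 6 of 14 alternatives in BSF, whose libraries overlapped con, and under 8 of 13 in DSF. With GC and length trends taken out it was at 0.10 in BSF (adjusted p = 0.715) and 0.31 in DSF (adjusted p = 0.241), beside 0.54 ± 0.24 and 0.67 ± 0.24. Atg4b, known as the most active of the family, averaged 39.2 ± 1.96, 38.1 ± 0.935, 34.9 ± 3.83 and 36.4 ± 2.22 CPM, against 54.3 ± 8.22 in con. Atg4c averaged 17.8 ± 1.55, 16.2 ± 0.510, 17.5 ± 1.47 and 14.01 ± 0.787 CPM, against 13.3 ± 0.877 in con, and was called higher in BSF_C and LSF, but in neither with those trends taken out (adjusted p of 0.199 and 0.173). The summed RPKM of the family was nearly level, at 24.5 ± 1.23 in BSF_C, 23.2 ± 0.114 in BSF, 25.0 ± 0.559 in LSF, 24.1 ± 0.415 in DSF and 22.1 ± 1.20 in con.

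By RPKM, the sum and the mix of the ATG8 genes varied between groups, which was not tested. Their summed RPKM was 102 ± 2.02 in BSF_C, 97.1 ± 3.70 in BSF, 116 ± 1.39 in LSF, 102 ± 1.3 in DSF and 83.5 ± 4.88 in con. Gabarap held 56.9% of it in BSF_C, 55.2% in BSF, 53.5% in LSF, 53.6% in DSF and 41.7% in con, and Map1lc3b 13.96%, 14.7%, 16.4%, 16.4% and 28.9%. Both the sum and these shares rest on joined exon lengths, 1844 bases for Gabarap and 7517 for Map1lc3b. The place of con in the sum depends on them, and by CPM con was not the lowest group. By mean CPM, Map1lc3b was above Gabarap in BSF, LSF, DSF and con, at 107, 143, 126 and 182. In CPM, Gabarap averaged 107 ± 3.67 in BSF_C, 98.8 ± 4.96 in BSF, 114 ± 2.85 in LSF, 101 ± 0.174 in DSF and 64.1 ± 2.51 in con, with log2 fold changes over con of 0.73 ± 0.07, 0.62 ± 0.08, 0.84 ± 0.07 and 0.66 ± 0.08. Map1lc3b went the other way, at -0.77 ± 0.06, -0.76 ± 0.07, -0.34 ± 0.06 and -0.52 ± 0.07. Gabarapl1 averaged 31.0 ± 2.29, 30.8 ± 6.17, 34.1 ± 2.67 and 27.8 ± 1.21 CPM, against 23.1 ± 1.45 in con, and was called higher in all but DSF, and in BSF not without BSF replicate 1 (adjusted p = 0.288). Gabarapl2 averaged 16.7 ± 1.06, 15.7 ± 2.39, 16.4 ± 0.961 and 15.9 ± 0.158 CPM, against 21.7 ± 5.27 in con, called lower in all 4 although con overlapped each, and called in none of them with library totals alone (adjusted p of 0.064 to 0.198). Map1lc3a was called higher in all 4, but with the trends of GC and length taken out the call held in LSF and not in BSF_C (log2 fold change of -0.02, adjusted p = 0.937), BSF (0.058, adjusted p = 0.847) or DSF (0.50, adjusted p = 0.0576). Without that step the values were 0.88 ± 0.22 in BSF_C, 0.92 ± 0.24 in BSF and 1.42 ± 0.23 in DSF.

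**Figure D4:**
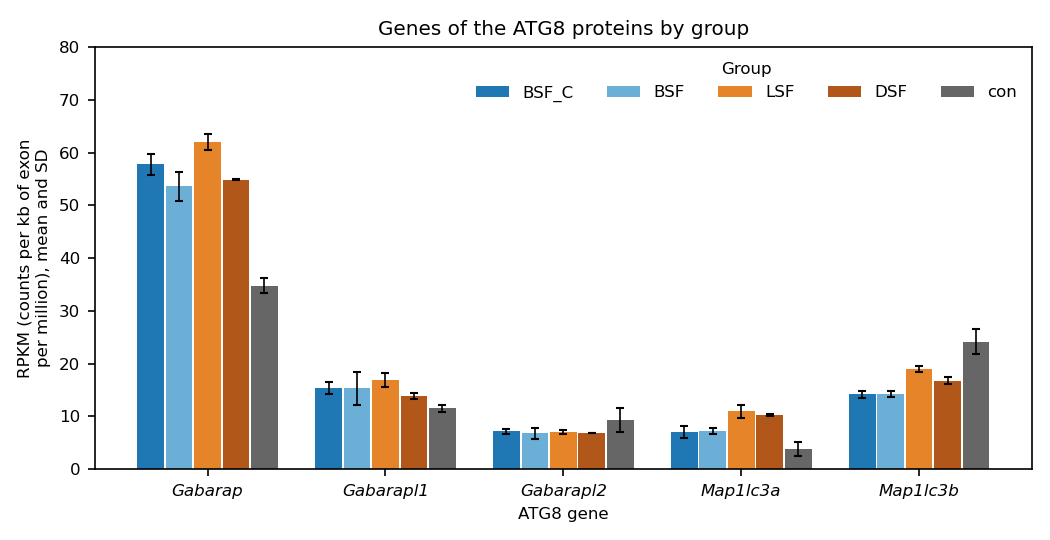
Mean RPKM (bars) and SD (error bars) of the 5 ATG8 genes in BSF_C, BSF, LSF, DSF and con. By this length-scaled measure Gabarap is the highest of the family in every group, and Map1lc3b is highest in con while Map1lc3a is lowest there.

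All 5 receptors were called higher than con in at least 3 of the 4 groups. Optn had log2 fold changes of 0.92 ± 0.08 in BSF_C, 0.86 ± 0.09 in BSF, 1.21 ± 0.08 in LSF and 0.97 ± 0.09 in DSF, and no library of these groups came down to a con library. Bnip3 had 1.30 ± 0.20, 1.13 ± 0.22, 1.87 ± 0.19 and 1.497 ± 0.21. Nbr1 had 0.49 ± 0.07, 0.48 ± 0.08, 0.42 ± 0.07 and 0.45 ± 0.08. Sqstm1 was 0.14 ± 0.06 in BSF_C (adjusted p = 0.042, but 0.0913 with DESeq2 size factors and 0.0571 to 0.165 without con replicate 1 or 2 or any 1 of the BSF_C libraries), 0.10 ± 0.07 in BSF (adjusted p = 0.218), 0.48 ± 0.06 in LSF and 0.29 ± 0.07 in DSF, so the step over con was largest in LSF. Bnip3l was 0.27 ± 0.08, 0.28 ± 0.09, 0.52 ± 0.08 and 0.24 ± 0.09, and turned to -0.05 in BSF_C, -0.08 in BSF and -0.04 in DSF, none of them called, when the same trends were taken out. The Bnip3l call in BSF was also lost without BSF replicate 2 (adjusted p = 0.0531), and that in DSF without con replicate 3, DSF column S2 or DSF column S3 (adjusted p of 0.0513 to 0.14).

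The transcription factors that drive autophagy and lysosome genes differed from each other. Tfe3 was lower than con in all 4 groups, at 42.8 ± 1.53 CPM in BSF_C, 41.3 ± 2.14 in BSF, 45.4 ± 2.54 in LSF and 44.7 ± 0.759 in DSF, against 68.7 ± 13.1 in con. Its log2 fold changes lay between -0.73 and -0.59. Tfeb averaged 25.0 ± 2.00 CPM in BSF_C, 23.8 ± 0.236 in BSF, 23.998 ± 1.74 in LSF, 20.7 ± 1.3 in DSF and 24.5 ± 3.39 in con and was called nowhere. Both are controlled mainly through phosphorylation and movement to the nucleus, which RNA does not show.

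The genes around this core were followed in 6 lists of 126 genes, 125 of them tested: nutrient sensing by mTORC1 and AMPK, regulators and membrane factors, fusion with the lysosome, further receptors, lysosomal membrane and hydrolases, and the V-ATPase that acidifies the lysosome. In BSF against the LSF and DSF mean, 23 were lower and 3 higher. Of the 28 lysosomal genes 9 were lower and 0 higher, of the 19 regulators 5 and 0, of the 16 receptors 5 and 1, of the 33 nutrient sensing genes 3 and 2, of the 15 V-ATPase genes 1 and 0, and of the 14 fusion genes 0 and 0. In BSF_C against the same mean, 21 were lower and 2 higher. Lower and higher were 7 and 0 of the lysosomal genes, 7 and 0 of the regulators and 4 and 0 of the receptors. The V-ATPase genes had 2 and 0, the nutrient sensing genes 1 and 2 and the fusion genes 0 and 0. The median log2 fold change of the lysosomal list was -0.14 in BSF and -0.12 in BSF_C. Both counts share the LSF and DSF libraries, and 20.8% of the 125 were called in BSF and 18.4% in BSF_C, beside 21.4% and 23.4% of all genes tested.

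Pink1, the kinase that marks damaged mitochondria for removal, averaged 93.8 ± 2.79 CPM in BSF_C, 91.2 ± 2.49 in BSF, 169 ± 5.43 in LSF, 117 ± 4.67 in DSF and 31.3 ± 7.10 in con. Its log2 fold change against the LSF and DSF mean was -0.58 ± 0.06 in BSF_C (adjusted p = 5.61e-11) and -0.62 ± 0.07 in BSF (adjusted p = 8.71e-10), and LSF was above DSF by 0.53 ± 0.07 (adjusted p = 8.68e-08). Retreg1, a receptor for autophagy of the endoplasmic reticulum, averaged 17.9 ± 2.78 CPM in BSF_C, 22.3 ± 3.14 in BSF, 48.9 ± 1.01 in LSF, 26.4 ± 4.15 in DSF and 22.0 ± 2.23 in con. LSF stood alone for Retreg1, at 0.89 ± 0.12 over DSF (adjusted p = 1.81e-08). Against the LSF and DSF mean Retreg1 was at -1.0002 ± 0.10 in BSF_C and -0.70 ± 0.11 in BSF, where the BSF libraries overlapped those of DSF. Sesn1, a leucine sensor that restrains mTORC1, averaged 52.0 ± 1.98 CPM in BSF_C, 49.8 ± 4.21 in BSF, 62.8 ± 1.40 in LSF, 90.6 ± 3.73 in DSF and 60.3 ± 2.49 in con, so that DSF was highest here. Against the LSF and DSF mean its log2 fold change was -0.54 ± 0.07 in BSF_C (adjusted p = 6.17e-09) and -0.60 ± 0.08 in BSF (adjusted p = 2.16e-08).

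Grn, the lysosomal protein progranulin, averaged 88.0 ± 5.30 CPM in BSF_C, 84.4 ± 3.57 in BSF, 119 ± 3.85 in LSF, 118 ± 7.01 in DSF and 101 ± 3.71 in con, a log2 fold change of -0.43 ± 0.06 in BSF_C (adjusted p = 4.16e-08) and -0.49 ± 0.07 in BSF (adjusted p = 8.9e-08). LSF and DSF were level for Grn, at 0.0084 ± 0.07 between them. In BSF the protease Ctsb was at -0.25 ± 0.05 (adjusted p = 0.000261), the proton channel subunit Atp6v0c at -0.24 ± 0.07 (adjusted p = 0.0077), Trp53inp2 at -0.24 ± 0.06 (adjusted p = 0.00324) and the transcription factor Foxo3 at -0.23 ± 0.07 (adjusted p = 0.0112). The AMPK subunit Prkag2 was at 0.21 ± 0.07 (adjusted p = 0.0263). In LSF against DSF, 17 of the 125 genes were higher and 4 lower, 6 and 2 of them lysosomal and 5 and 1 receptors. That is 16.8% of the 125, near the 15.9% of all genes tested.

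**Figure D5:**
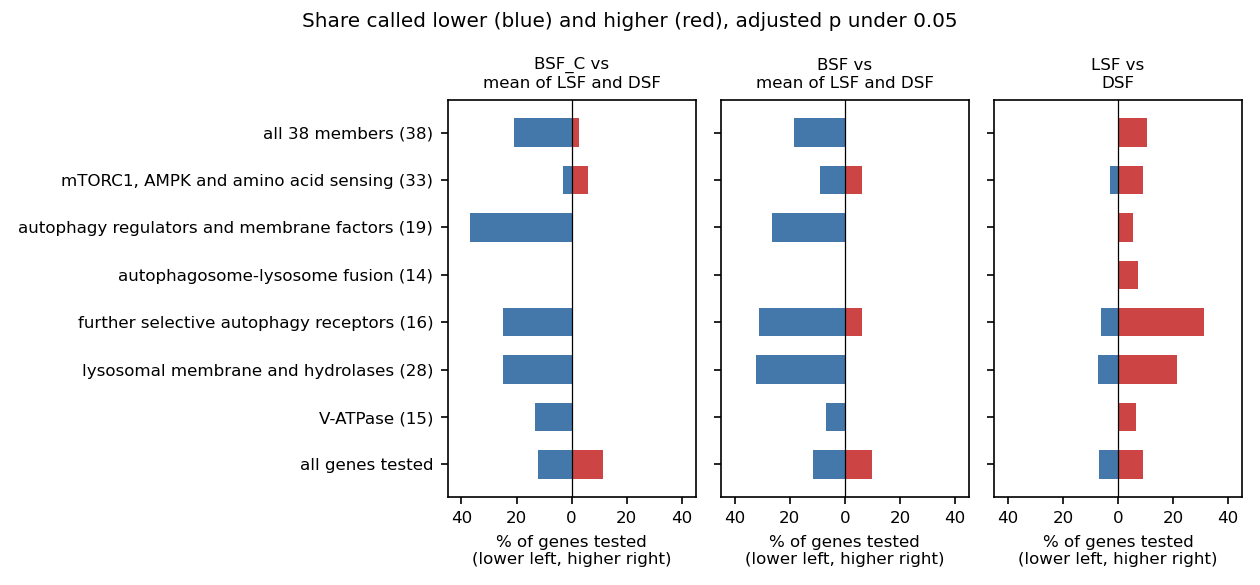
Share of each gene list called lower (left) and higher (right) in BSF_C and BSF against the LSF and DSF mean and in LSF against DSF, with the number of genes tested in brackets and all genes tested in the bottom row. The fusion list has no call in the first and second panels. In those panels the lysosomal, regulator and V-ATPase lists have lower calls and no higher ones, as has the receptor list in the first panel.

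Against con the surrounding lists were called in both directions, 47 higher and 58 lower in BSF_C, 43 and 56 in BSF, 49 and 53 in LSF and 51 and 48 in DSF. These are 84%, 79.2%, 81.6% and 79.2% of the 125, beside 73%, 70.2%, 72% and 67.7% of all genes tested. In BSF against con the genes with the smallest p of each list included Cd63 at 1.88 ± 0.08 (adjusted p = 1.01e-26), Castor2 at 1.78 ± 0.11, Lipa at 1.65 ± 0.10, Pink1 at 1.55 ± 0.10, Atp6v0b at 1.52 ± 0.16 and Vamp8 at 1.39 ± 0.13 on the log2 scale. Cd63 is a protein of lysosomal membranes, Lipa the lysosomal acid lipase and Vamp8 a SNARE of fusion with the lysosome. Lower in BSF were Bcl2l13 at -1.31 ± 0.07 (adjusted p = 1.03e-23), Prkab1 at -1.07 ± 0.09, Ambra1 at -1.03 ± 0.09, Vps33a at -0.90 ± 0.08, Trp53inp2 at -0.84 ± 0.07 and Atp6v1b2 at -0.63 ± 0.08. Bcl2l13 is a mitophagy receptor and Ambra1 an activator of the ULK1 and Becn1 complexes. As for the autophagy genes themselves, these differences carry the gap between con and all other libraries.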

How the data were processed

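Polyadenylated RNA came from sorted jejunal epithelial cells, per the labels' protocols. The table deposited by the authors holds whole-number counts for 21868 symbols in 13 libraries, not normalized. The submitters' processing notes name FastQC 0.11.8, cutadapt 2.9, STAR 2.7.2e, DESeq2 1.32.0 and the builds GRCm38 and mm10. Annotation, strand setting and treatment of multiply mapped reads are not given in the sources used here. Values of genes that overlap another gene or have near-identical copies are therefore uncertain. Besides the overlaps named above, Gabarapl1 shares 570 of 2013 exon bases with 1700101I11Rik and Uvrag 1589 of 9035 with Gm45187, on the opposite strand. Smaller overlaps are annotated for Atg14, Atg2b, Rb1cc1, Optn, Map1lc3b and Atg16l2. Exon lengths came from GENCODE M21 on GRCm38 and join the exons of all transcripts of a gene.

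Genes were kept by edgeR's filterByExpr (14300 genes, 99.91% of counts). Trimmed-mean (TMM) factors scaled the libraries, and CPM and RPKM rest on them. The two-sided quasi-likelihood test of edgeR 4.0.16 under R 4.3.3 was fitted to the 13 libraries together by group alone, leaving 8 residual degrees of freedom. P-values were adjusted over all genes tested by the Benjamini-Hochberg method, with a threshold of 0.05. The common biological coefficient of variation came to 4.87%. The SE beside a log2 fold change is its size over the square root of F, not the standard error of the coefficient. Labels speak of biological replicates without naming animals, so a p-value covers the spread between these libraries and no more. The procedure was also run on simulated data, with changes larger than most autophagy calls in the contrasts that leave con out. That run says nothing about smaller changes. The 2 DSF columns are marked S2 and S3, which is not how the labels number them, so they carry no replicate number.

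The members, gene lists and tests were chosen with earlier results of these data known. Each member is given its level. Fold changes are given for up to 10 called members with the smallest p per comparison, for members set beside one of these, and from each surrounding list for up to 2 called genes with the smallest p in BSF against con and against the LSF and DSF mean. Alternatives were the size factors and Wald test of DESeq2 1.42.0, limma-voom (limma 3.58.1), library totals alone, no filter, only the groups compared, con left out, a replicate block, GC and length trends taken out, each library left out, and libraries thinned to the shallowest total.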

Additional observations from a re-analysis of the deposited data

How the results depend on the processing

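Of 476 values of the 32 counts of called genes under alternatives, 417 stayed within 1.5 times and 59 did not. Autophagy genes called higher in BSF_C against the LSF and DSF mean were 0 (1 before) with DESeq2 size factors, the Wald test, no filter, GC and length trends taken out, and thinning, and those called lower were 4 with thinning. In LSF against DSF, 1 was higher with library totals alone and with thinning, 10 with only the groups compared, 7 with the trends taken out and 8 with con left out. In BSF against con, 8 were lower with library totals alone.

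In the surrounding lists, BSF against con had 37 lower with library totals alone. BSF against the LSF and DSF mean had 8 higher with library totals alone, 0 with the Wald test, 7 with only the groups compared and 5 with con left out, and 15 lower with thinning. BSF_C against that mean had 4 higher with library totals alone and 1 with the Wald test or no filter. LSF against DSF had 14 lower with library totals alone, 10 with only the groups compared and 8 with con left out. BSF_C against BSF had 1 lower with no filter, with only the groups compared and with con left out. Thinning was chosen after seeing the data, and the cause of these changes was not tested.

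Directions turned in 4 values, none of them called, when GC and length trends were taken out: Bnip3l at -0.081 in BSF, -0.047 in BSF_C and -0.039 in DSF, and Map1lc3a at -0.022 in BSF_C, each against con.

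Leaving out 1 library at a time, the autophagy genes called lower numbered 4 to 7 in BSF_C and 1 to 7 in BSF against the LSF and DSF mean, and those called higher 0 to 1 and 0. In LSF against DSF 0 to 1 were higher. In the surrounding lists, BSF_C had 1 to 2 higher and 15 to 20 lower, BSF 0 to 2 higher and 9 to 22 lower, LSF against DSF 13 to 17 higher and 2 to 4 lower, and BSF_C against BSF 0 to 1 lower. A group left with 1 library was assumed to vary like the others.

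With a replicate block, 30 autophagy genes were called in BSF_C against con (31 without it), 27 in BSF against con (28), 29 in LSF against con (29) and 0 in BSF_C against BSF (0). Equal numbers did not pair the libraries: the correlation of their deviations ran from -0.067 to 0.030 over 15 pairs, 0 of them over 0.1. No paired analysis was possible because the DSF columns carry no number wherever DSF enters. Depth limits members with few counts, such as Atg10, and the 2 libraries of BSF and of DSF limit every contrast that uses them.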
